A study of Drosophila melanogaster with 3 samples.

Results

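Piezo is 1 of 17415 annotated Drosophila melanogaster genes on the arms examined, and it was chosen by the measured peak signals of a CG4820 binding map, whose highest peak lay at its start. Its rank and its signal are therefore given here as a description and not as a test. The peaks described were those with a summit in the gene body or within 10 kb of either end. These were 4 of 4876 peaks on the optimal list, 15 of 21656 on the pooled candidate list, and 16 of 26597, 17 of 27004 and 13 of 26145 on the candidate lists of replicates 1, 2 and 3.

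The map came from chromatin immunoprecipitation followed by sequencing (ChIP-seq) of whole, mixed-sex embryos at 0 to 16 h of age. The embryos belonged to 1 transgenic fly line, CG4820-GFP, which stably expresses CG4820 fused at its C terminus to green fluorescent protein (GFP), and an antibody against GFP was used. Chromatin was sonicated to 200 to 800 bp, and 3 biological replicates made up 1 group, so there was no untagged, mutant or treated group to set against it. The optimal list holds peaks kept by a comparison of ranks between replicates, whereas candidate lists hold peaks together with background. Whole embryos mix many cell types, and a higher signal at Piezo in a few cells cannot be told apart from a lower signal in many. Read totals were not part of the files, so the depth behind each peak is unknown.

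Piezo encodes a large membrane protein that forms a mechanically gated cation channel, opened by stretch or indentation of the membrane. In the fly it is known for sensing harmful touch in larval sensory neurons and for mechanical sensing in gut precursor cells. Many Drosophila genes lie head to head, so the short stretch between their starts serves as a promoter for both. A peak there can be assigned by position to either gene.

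Piezo (FBgn0264953) spans 27065 bp on the plus strand of arm 2L, chr2L:8163073-8190137 in dm6 coordinates. Its 11 annotated transcripts share 1 transcription start site (TSS), position 8163073, and RefSeq places the gene at the same coordinates. Exon 1 is 446 bp of 5' untranslated sequence, intron 1 is 9497 bp or 35.1% of the gene, and the start codon lies 10073 bp after the TSS. Promoter, exon 1 and intron 1 therefore precede all of the coding sequence. On the other side lies Acbp1, an acyl-CoA binding protein gene on the minus strand, whose nearest TSS is 621 bp from that of Piezo.

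The highest-signal peak of the optimal list ran over chr2L:8162312-8163337 and had its summit at 8162934, 139 bp upstream of the Piezo TSS. The sequence from 150 bp before that summit to the last base before the TSS is shown. It holds the summit and the matches described further on that lie before the TSS. It is the plus strand of the RefSeq genome at chr2L:8162784-8163072, and the capitals mark the 9-letter word GCATAAACG.

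Piezo promoter: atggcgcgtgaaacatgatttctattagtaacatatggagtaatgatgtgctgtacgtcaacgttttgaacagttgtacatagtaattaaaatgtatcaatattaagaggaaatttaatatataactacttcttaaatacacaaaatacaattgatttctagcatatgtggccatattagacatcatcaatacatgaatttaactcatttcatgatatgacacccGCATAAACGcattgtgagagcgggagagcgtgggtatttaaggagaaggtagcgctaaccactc

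The peak at the Piezo start stood first in every list. Its signal, the authors' enrichment value on each list's own scale, was 3672.1 in replicate 1, 4793.8 in replicate 2 and 3153.8 in replicate 3, and 11612.6 in both the optimal and the pooled list. Because scales differ between lists, each signal was read against its own list. It was 219 times the list median in replicate 1, 245 times in replicate 2 and 193 times in replicate 3, which is 219 ± 26 (SD, n = 3). In the pooled list it was 223 times the median and in the optimal list 67.9 times, the optimal list holding few of the low candidates. The −log10 q-value did not single the peak out, since all 4876 optimal peaks share the value of 4, as do 5031 pooled candidates.

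The lead over the next peak was small. The second peak of the optimal list, at Eip75B, an ecdysone-induced nuclear receptor gene, had a signal of 10576.5, so the Piezo peak was 1.10 times as high. The same ratio was 1.06, 1.13 and 1.08 in replicates 1, 2 and 3 (1.09 ± 0.0361, SD, n = 3). The order of the 2 peaks was therefore the same in all 3 replicates although the difference was within 1.13 times. Below them the signal dropped quickly. The peaks nearest CG7841, CG44838, CG11309 and DNAlig3, ranked 3 to 6, reached 73.3%, 53.3%, 47.3% and 36.3% of the Piezo signal, and the Piezo peak was 3.49 times as high as the tenth.

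**Figure D1:**
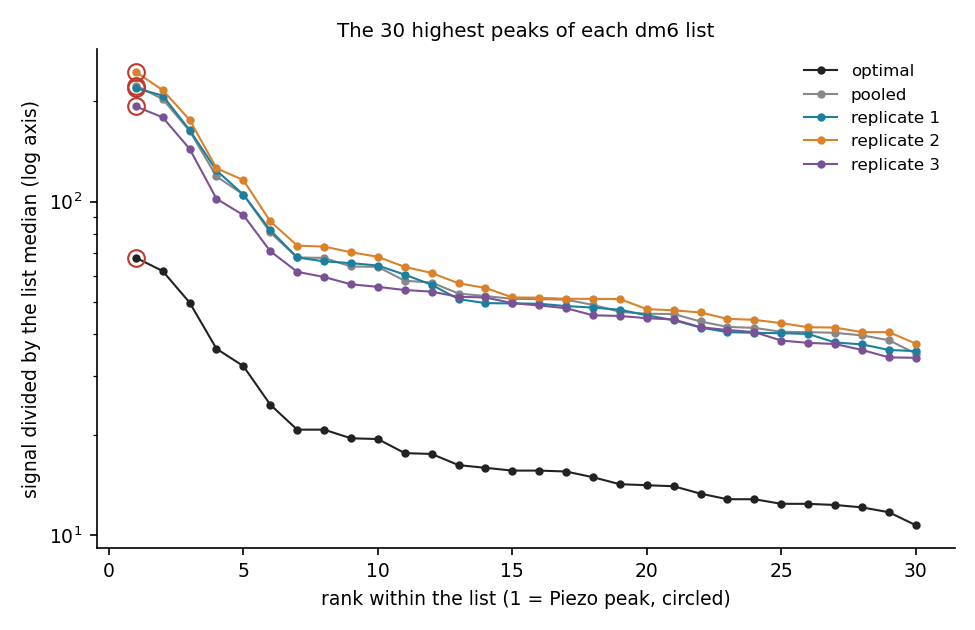
Signal of the 30 highest peaks of each dm6 list, divided by that list's median, on a log axis against rank, with a line for the optimal list, the pooled list and each of the 3 replicates. The circled points are the Piezo peak, at 67.9 times the median in the optimal list and between 193 and 245 times in the 3 replicates, and all 5 lines fall steeply over the first ranks.

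Across the 5 dm6 lists, the protein-coding genes whose highest promoter peak followed the most similar profile of signals were found by the Euclidean distance of log10(signal/list median), over 2730 genes with a promoter peak in every list. Acbp1 was at distance 0 because it shares the Piezo peak, Eip75B was at 0.0891 and CG7841 at 0.298. The next gene, CG44838, was at 0.609. This likeness is one of height, since the profiles of high peaks are set by their rank, and says nothing of shared function.

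The peak was broad. It covered 1026 bp in the optimal list, where 77.8% of the peaks have the list's usual width of 416 bp. In the replicates it was 959 bp, 1005 bp and 929 bp wide (964 ± 38.3 bp, SD, n = 3), and no peak of any replicate list was wider. In the optimal list 2 entries were wider, both of 1038 bp. They are the same interval of arm 3L listed with 2 summits, ranked 12 and 265. The optimal peaks ranked 2 to 6 were 752, 699, 742, 614 and 554 bp wide, all above the usual width. A width above 416 bp was thus not particular to Piezo among the highest peaks.

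The interval was lopsided about its summit in every list. In the optimal list it reached 622 bp to the Acbp1 side and 403 bp to the Piezo side, and the share on the Acbp1 side was 59.8%, 60.5% and 61.3% in replicates 1, 2 and 3. Its ends shifted more than its summit did, the start ranging over 31 bp and the end over 45 bp between replicates. In the optimal list it included the first 265 bp of Piezo and the first 141 bp of Acbp1, so it covered both starts. The summit was 139 bp from the Piezo TSS and 482 bp from that of Acbp1, and in the replicates 151, 144 and 151 bp against 470, 477 and 470 bp. In each list, then, the summit was nearer to Piezo.

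An interval that covers both starts of a head-to-head pair was found for 373 of the 4876 optimal peaks (7.65%). It was found for 5 of the 25 with the highest signal, the Piezo peak among them. Width was not matched in this count, and the usual width of 416 bp is less than the 621 bp between the Piezo and Acbp1 starts. Any gene start at all was covered by 1465 intervals.

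**Figure D2:**
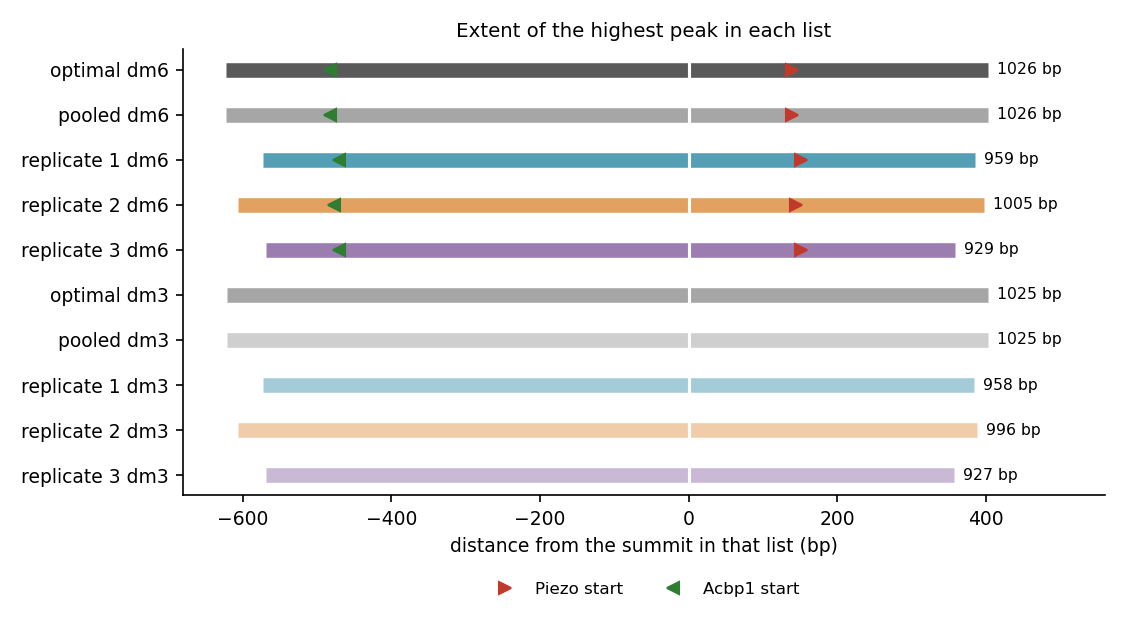
Extent of the highest peak in each of the 10 lists, in bp from that list's own summit (white tick), with its width at the right and, for the dm6 lists, triangles at the Piezo and Acbp1 starts. The bars reach between 569 and 622 bp to the left and between 357 and 403 bp to the right, and both starts lie inside every dm6 bar.

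The replicate summits fell within 7 bp of each other, at 8162922 in replicate 1, 8162929 in replicate 2 and 8162922 in replicate 3 (SD 4.04 bp, n = 3). The summit of the optimal and pooled lists, at 8162934, lay outside that range and was closer to the Piezo TSS than any of the 3. For comparison, the median range was 45 bp over the 4853 optimal peaks with a candidate in each replicate, and 17 bp over the 25 highest. A range of 7 bp or less was found for 5.89% of all those peaks, for 14.0% of the 250 highest and for 32% of the 25 highest. The Piezo peak itself is counted in each of these medians and shares. Against all peaks the Piezo summits were close together, whereas among the highest peaks such closeness was common. The peak at CG11309 had a range of 6 bp, against 25 bp at Eip75B and 12 bp at CG7841.

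**Figure D3:**
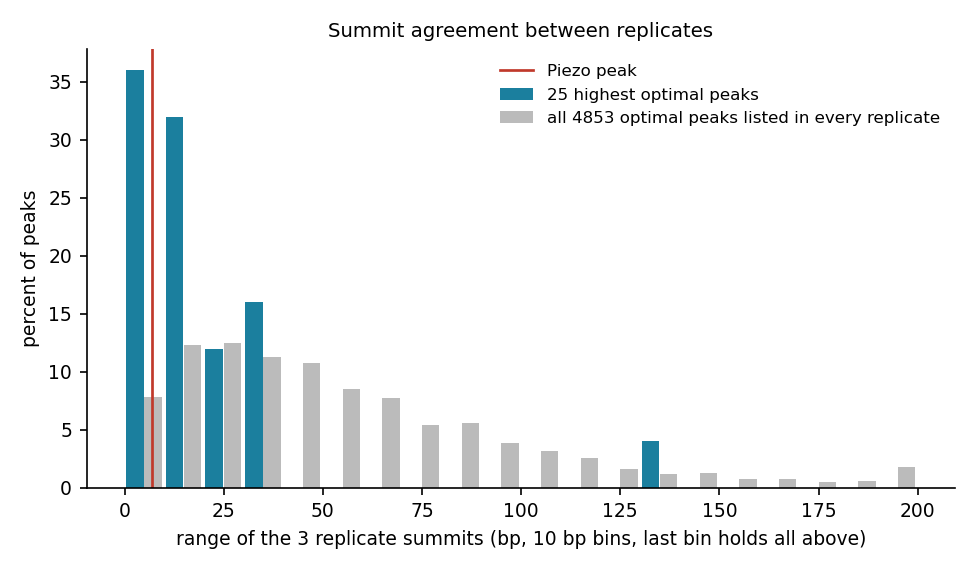
Range of the 3 replicate summits for the Piezo peak (line, 7 bp), the 25 highest optimal peaks and all 4853 optimal peaks listed in every replicate, as the percent of peaks per 10 bp bin. The Piezo peak falls in the first bin, under the median of 17 bp of the 25 highest peaks and far under the median of 45 bp of all peaks.

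On the older build, dm3, the highest peak of each of the 5 lists was also on 2L and had nearly the same shape. The dm3 optimal peak was 1025 bp wide, with a signal of 11612.5 and rank 1 of 4205, and it reached 621 bp and 403 bp from its summit. The dm3 replicate widths were 958, 996 and 927 bp, and the ratios to the second peak were 1.06, 1.13 and 1.08 as on dm6. The dm3 summits had the same coordinate numbers as on dm6. These were 8162934 in the optimal and pooled lists, and 8162922, 8162929 and 8162922 in replicates 1, 2 and 3. Coordinates were not converted and the dm3 gene models were not used here. The dm3 peak was therefore compared by rank, shape, signal and coordinate number only.

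Near the summit the promoter was rich in A and T. Within 50 bp of the optimal summit 76.2% of the bases were A or T, against 58.8% in flanking windows of the same total size 300 bp away. Both Piezo flanks lie inside its broad peak, and the one on the Piezo side lies in exon 1. For a peak of the usual width of 416 bp the flanks lie outside the interval, so the flank values are not fully alike. Over the other 4875 optimal peaks the medians were 68.3% at the summit and 54.9% in the flanks, and 13.5% of them had at least as much A+T as Piezo. An A+T rise at the summit was thus the usual pattern in this list, and Piezo lay in its upper part.

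Known motifs were searched as letters on both strands. Those of core promoters were the DRE, read by DREF, as TATCGATA, the BEAF-32 insulator core CGATA, which the DRE contains, motif 1 of the factor M1BP as GGTCACAC, motif 6, motif 7, the TATA box as TATAAA and the initiator as TCAGT. Those of single factors were the E-box of helix-loop-helix proteins as CANNTG, the GAGA factor site as GAGAG, the site of the early embryonic activator Zelda as CAGGTA, a core of the insulator protein CTCF as AGGNGGC and a homeodomain core as TAATTA. Within 50 bp of the Piezo summit the E-box alone matched, as CAATTG starting 141 bp before the TSS and as CATATG starting 127 bp before it. The first of these covers the summit base of the optimal and pooled lists, whereas the summits of all 3 replicates lie before it. An E-box match occurs in 33.9% of the other summit windows and in 40.6% of the flanks, so it is a common string of letters.

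Within 100 bp of the summit another E-box (CAGTTG), a homeodomain core starting 206 bp before the TSS and a GAGA match starting 49 bp before it were added. The homeodomain core is in 17.8% and GAGAG in 20.3% of other windows of that size. Within 150 bp, another E-box (CATATG) started 258 bp before the TSS, a second GAGA match lay at 41 bp before it and an initiator match at 2 bp after it, and TCAGT is in 48.5% of other windows of that size. DRE, BEAF-32, M1BP, motif 6, motif 7, Zelda, TATA and CTCF letters were not found within 150 bp on either strand. They occurred there in 4.92%, 37.7%, 3.28%, 0.903%, 8.33%, 6.56%, 47.1% and 7.98% of the other optimal peaks. No match says only that these letters are not in this window.

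Of the 94 different 8-letter words within 50 bp of the Piezo summit, 67 were in at least 20 other summit windows, and 62 of these were in more summit windows than flanks. The 5 with the highest ratio were TTCTTAAA (108 other summits, 17 flanks, ratio 6.35), TTAATATA (147 and 24, ratio 6.12), TACATGAA (30 and 5, ratio 6.0), TTTAATAT (222 and 43, ratio 5.16) and CTTCTTAA (35 and 7, ratio 5.0). All 5 consist mostly of A and T, with between 6 and 8 such letters, in windows that are themselves richer in A+T than their flanks. TTCTTAAA and CTTCTTAA overlap in the promoter, as do TTAATATA and TTTAATAT.

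The word GCATAAACG was chosen after reading the sequences of the highest peaks, so its counts are a description and support nothing. The Piezo peak held 1 copy, chr2L:8163009-8163017, between 64 and 56 bp before the TSS and centred 79 bp from the summit. This was the single copy in the whole 47065 bp around the gene. Among the 24 optimal peaks ranked 2 to 25 the word lay within 100 bp of the summit in 5 (20.8%), of the 225 ranked 26 to 250 in 3 (1.33%), and of the 4626 lower ones in 30 (0.649%). The flanks held it in 0, 0 and 5 cases (0.108% of the last class). The arms examined hold 831 copies, of which 53 (6.38%) lie inside optimal peaks, intervals that cover 1.34% of their length.

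Copies in peaks ranked 11 to 18 are shown with 10 bases on each side, so that the Piezo copy can be compared with them. Capitals mark the word, each line is written on the strand that reads GCATAAACG, and the sequence is that of the RefSeq genome in dm6 coordinates. The lines are Piezo (chr2L:8162999-8163027, plus strand), CG13876 (chr3L:206028-206056, plus), Amun (chrX:11715114-11715142, minus, and chrX:11715161-11715189, plus), CG9135 (chr2L:6051328-6051356, minus) and Taf4 (chr3L:16113709-16113737, plus), each gene having the TSS nearest to its peak.
Piezo: tatgacacccGCATAAACGcattgtgaga
CG13876: aacgtattgcGCATAAACGaacattcaca
Amun, minus strand copy: gacgcactgcGCATAAACGcagcggcaga
Amun, plus strand copy: taaagcggagGCATAAACGcggctttgtc
CG9135: gctcagcttcGCATAAACGgtccaaaacc
Taf4: ctcgccacccGCATAAACGagcggcattg
The other such peak, ranked 19 at Dp, is not shown. Its copy was centred at −71 bp from the summit, about as far as that of Piezo at +79 bp. The copies at the other genes shown were centred at +21 bp (CG13876), −40 and +7 bp (Amun), −17 bp (CG9135) and +7 bp (Taf4).

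Of the other 3 optimal peaks near Piezo, the first 2 in order along the arm lay upstream among its neighbours and the last in intron 1. Their summit windows are shown for contrast with the promoter, 50 bp on each side of the summit on the plus strand, with capitals for motif matches.
Intron of CG43394 and PAPLA1, chr2L:8156813-8156913: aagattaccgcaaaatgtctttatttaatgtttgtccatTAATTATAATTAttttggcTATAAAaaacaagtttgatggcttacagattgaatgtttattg
Between PAPLA1 and Rbsn-5, chr2L:8159675-8159775: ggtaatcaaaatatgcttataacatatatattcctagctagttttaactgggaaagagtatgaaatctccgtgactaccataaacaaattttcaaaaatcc
Piezo intron 1, chr2L:8164366-8164466: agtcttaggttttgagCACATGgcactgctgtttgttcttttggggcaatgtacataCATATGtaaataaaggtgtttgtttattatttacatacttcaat
The capitals are a pair of homeodomain cores and a TATA match in the first window and a pair of E-boxes in the last. The middle window held no match of the motifs searched.

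The peak with its summit at 8159725, 3.35 kb upstream of the Piezo TSS, lay between 2 head-to-head genes, PAPLA1, which encodes a phospholipase, and Rbsn-5, which encodes the endosomal protein Rabenosyn-5. Its summit was 87 bp upstream of the nearest PAPLA1 TSS. It was 262 bp wide, and its signal of 549 was 4.72% of that of the Piezo peak and ranked 303. Its signal ranked 281, 463 and 254 in replicates 1, 2 and 3, with summits within 10 bp of each other.

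The peak at 8156863, 6.21 kb upstream, lay in an intron shared by PAPLA1 and CG43394, 113 bp upstream of an internal PAPLA1 TSS. It had a signal of 216, rank 1727 and the usual width of 416 bp. In replicates 1, 2 and 3 it ranked 1415, 1877 and 2129, and its summits ranged over 79 bp, against a median of 41 bp for optimal peaks of like rank.

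The intron 1 peak of Piezo, chr2L:8164208-8164623 with its summit at 8164416, was the single optimal peak inside the gene, 1343 bp after the TSS. Its signal of 248 was 2.14% of that of the promoter peak and ranked 1412. Its signal was 71.1 in replicate 1, 139 in replicate 2 and 25.5 in replicate 3, which ranked 1587, 735 and 6344. Replicate 2 was thus high and replicate 3 low, outside the 4876 highest peaks of its list and with a −log10 q-value of 1.44, against 3.30 in replicate 1 and 3.64 in replicate 2. The highest of these ranks was 8.63 times the lowest, while the median ratio was 1.59 over the 200 optimal peaks within 100 ranks of it, none of which had a higher ratio. Without replicate 3 the ratio was 2.16, against a median of 1.27, and 13 of the 200 had a higher one. Without replicate 2 it was 4.0, against 1.35, with 3 of the 200 higher. The position of the summit did not vary in the same way, with a range of 26 bp against a median of 40 bp for peaks of like rank.

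A replicate was counted as supporting an optimal peak where the interval shared 1 bp or more with any of the 4876 highest peaks of its list. Of the 4 optimal peaks near Piezo 3 were supported by every replicate, and 72.9% of all optimal peaks were. The intron 1 peak was the exception, supported by replicates 1 and 2. Outside the 10 kb limit, the next optimal peak upstream was 79.92 kb from the gene, with a signal of 106 and rank 4612. Downstream of the gene there was none within 10 kb, and the next lay 15.14 kb from its end, with a signal of 1174 and rank 74. The upstream peak farthest from Piezo but inside the limit was the one at 6.21 kb.

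**Figure D4:**
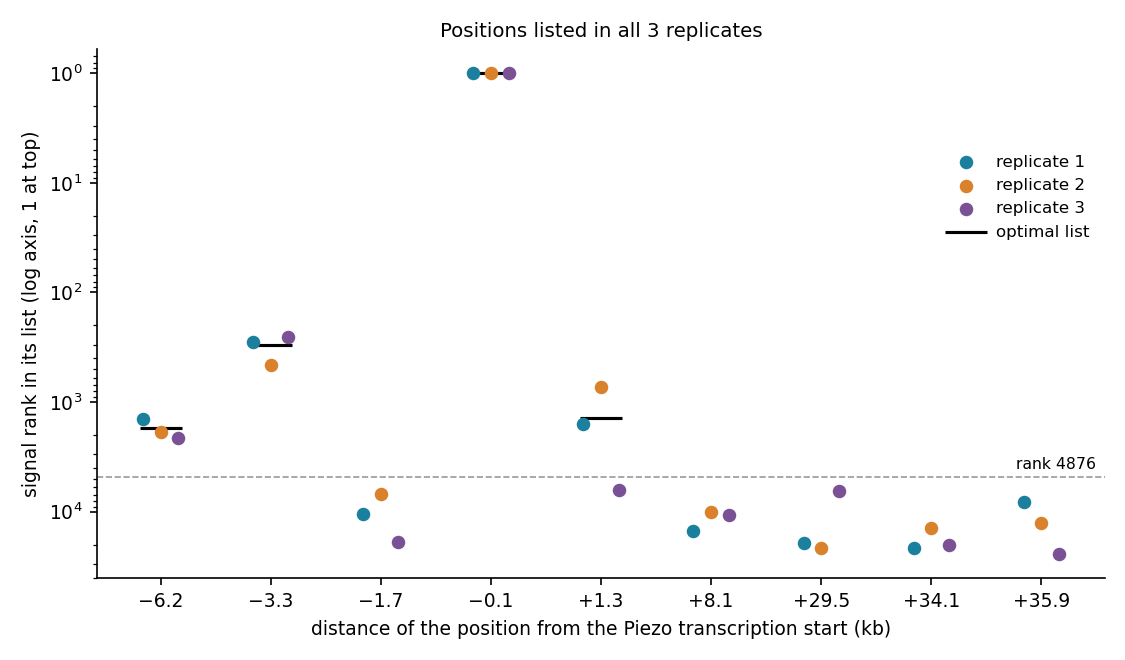
Signal rank of the 9 positions near Piezo that were listed in all 3 replicates, on a log axis with rank 1 at the top, against distance from the Piezo start in kb, with a point for each replicate and a bar for the optimal list. The promoter peak is at rank 1 throughout, the intron 1 peak spreads between ranks 735 and 6344, and the 5 positions without a bar lie below rank 4876 in every replicate.

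Weaker candidates lay in intron 1 and around the neighbours. Of the 15 pooled candidates near Piezo, 5 lay upstream of it, 6 in intron 1, none in the rest of the gene and 4 downstream. The 6 in intron 1 lay between 1.34 and 8.27 kb after the TSS. Those at 2.26, 5.18 and 5.41 kb were each listed in a single replicate, with pooled −log10 q-values of 0.07, 0.07 and 0.08. The intervals at 5.18 and 5.41 kb overlap, as do those at 8.07 and 8.27 kb. The 4 that were on the optimal list compare with 22.5% of all pooled candidates. In the 17122 bp after intron 1, which hold the coding exons, replicates 1, 2 and 3 listed 1, 1 and 3 candidates, at 5 different positions, each in a single replicate and none in the pooled list.

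Summits within 150 bp of each other were joined into 26 positions. Of these 9 were listed in all 3 replicates, 2 in 2 replicates and 15 in 1, and all 9 were in the pooled list. Apart from the 4 on the optimal list, 5 positions recurred in all 3 replicates. In intron 1 it was the position 8.07 kb after the TSS, with summits at 8.06, 8.08 and 8.05 kb and ranks 14934, 10130 and 10686 in replicates 1, 2 and 3. Its signals of 15.7, 23.5 and 18.2 were close to the median of all candidates in each list, at 0.940, 1.20 and 1.11 times that median. The others were at 1.68 kb upstream, in the coding sequence of Rbsn-5, and downstream of Piezo at 29.52 kb in the coding sequence of CG8475, at 34.11 kb just before CG8460, and at 35.91 kb in the 5' untranslated region of PGAP5. Their ranks in the replicates were all between 6438 and 24290, outside the 4876 highest peaks of each list.

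**Figure D5:**
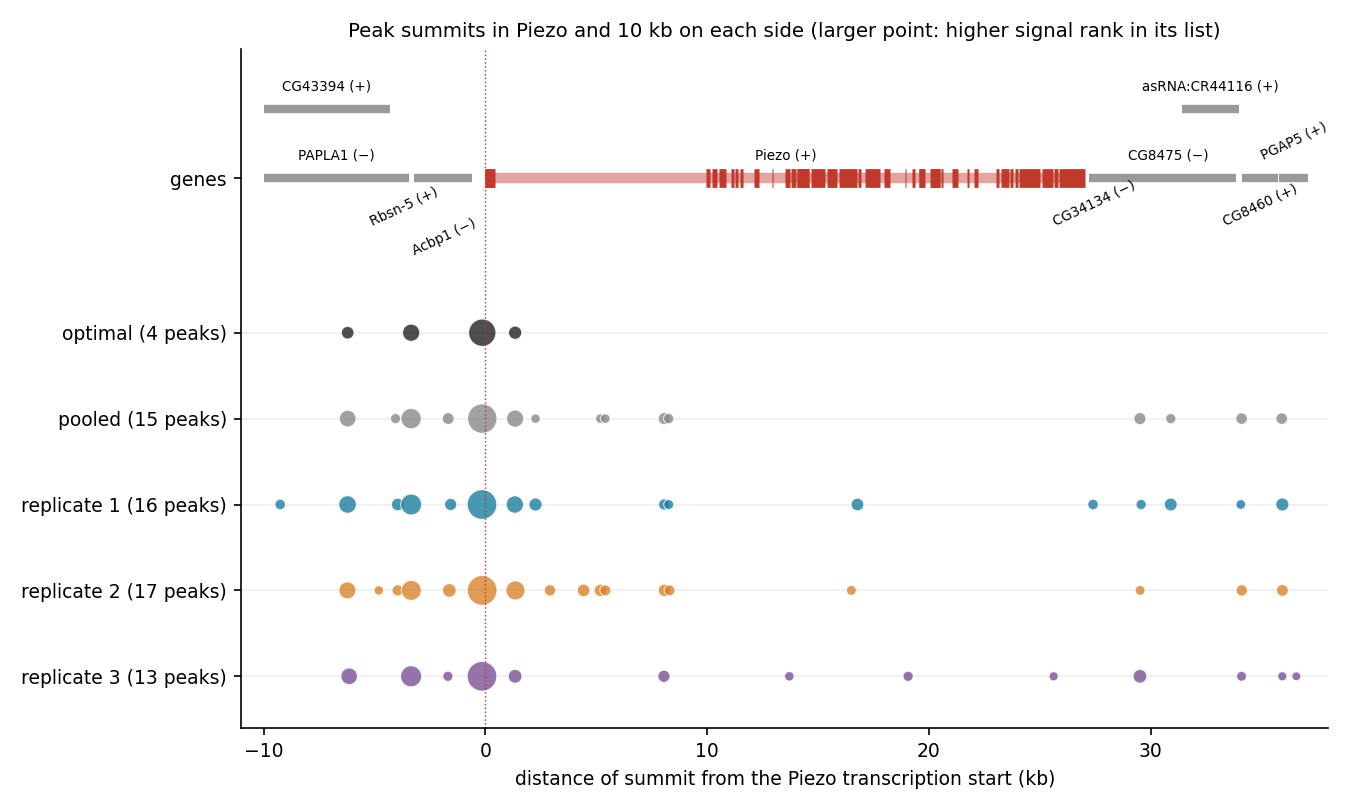
Summits of the peaks near Piezo in each dm6 list against distance from the Piezo start in kb, with larger points for a higher rank in the list. The gene models are drawn above, Piezo with its exons in red. The large points beside the start recur in every list, 6 pooled candidates lie over intron 1, and no pooled candidate lies over the coding exons.

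The size of the gene bears on such counts. Of 470 other protein-coding genes of 20 to 35 kb, 231 (49.1%) had an optimal summit in the body, as Piezo does. The median number of pooled candidates in the body was 4, with quartiles of 2 and 7, and Piezo had 6. Its first intron held 0.632 pooled candidates per kb and the rest of its body 0. Over the 452 other genes with a first intron of 5 to 15 kb and at least 5 kb of other body the medians were 0.203 per kb in the first intron and 0.125 in the rest. The density in the first intron was the higher one in 279 of these (61.7%), was at least that of Piezo in 47 (10.4%), and 70 (15.5%) had candidates in the first intron and none in the rest.

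To see where Piezo stands among genes of mechanical sensing, 24 genes for mechanosensory channels and the structures they work in were examined, all of which were found in the annotation. Of these genes 4, Piezo included, had an optimal summit 500 bp or less from a TSS. The background over protein-coding genes was 19.9%. Without Piezo the count was 3 of 23. Where each peak was assigned only to its nearest protein-coding TSS, 3 of the 24 genes remained, Piezo included. Not every peak given next is therefore nearest to the gene it is listed under. Trpm, a TRP melastatin cation channel gene, had a signal of 363 and rank 714 with the summit 153 bp from a TSS. Tmem63, a member of the OSCA and TMEM63 channel family, had 244 and rank 1455 at 105 bp. The wtrw gene, water witch, a TRPA channel gene of humidity sensing, had 114 and rank 4184 at 205 bp. All of these signals were far under the 11613 of the Piezo peak.

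Replicate ranks of those 3 promoters were 548, 1098 and 616 for Trpm, 2304, 994 and 1621 for Tmem63, and 4784, 3152 and 10526 for wtrw, against 1 in each for Piezo. A pooled promoter candidate was found for 8 of the 24 genes, the background being 44.9% of protein-coding genes. The 4 further ones were rpk, an ion channel gene of the degenerin family, at rank 10969, subdued, an anoctamin channel gene, at 6382, nompA, which encodes a protein linking sensory cilia to the cuticle, at 21108, and btv, a ciliary dynein gene, at 20743. Both btv and subdued also had an optimal summit within the gene body, as did Piezo, Trpm and wtrw, which makes 5 of 24, against 11.7% of all protein-coding genes, whose lengths were not matched to the list. For 18 of the 24 there was no optimal summit at a promoter or in the body, as for 75.2% of protein-coding genes. These include the related gene Pzl, the TRPN channel gene nompC and the pickpocket genes ppk and ppk26. Leaving out Piezo, 7 of 23 had a pooled promoter candidate and 3 of 23 an optimal summit within 500 bp. Both of these shares lay under their backgrounds. With promoters taken as 1000 bp on each side of a TSS, 7 of the 24 had an optimal summit, against 22.9% of protein-coding genes. That share and the share with an optimal summit in the body, both counting Piezo, lay above their backgrounds. None of these differences was tested. Since Piezo was chosen for its peak, its part in these counts carries no information on the list.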

How the data were processed

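Peak lists of 3 ChIP-seq replicates of 1 group were used as deposited. Per the deposited README, each replicate's candidates came from its alignment and a control (not analysed here), pooled candidates from all 3 alignments with that control, and optimal peaks from comparing these lists by irreproducible discovery rate. For the aligner, peak caller and limit, names and settings were not given in the sources used here. Among the columns, signal holds the authors' enrichment per peak, the −log10 column the deposited q-values, and the offset column the deposited summit position. Signals were ranked within lists only. No read totals were used, so depth is unknown and no counting intervals are given.

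Gene models were Ensembl BDGP6.54, release 115, and sequence was the RefSeq genome of the same assembly. All 106278 dm6 peaks lay inside its arms, and 99.9% of 16213 start codons read ATG. Positions are 1-based. The dm3 coordinates were not converted. Piezo, the gene lists and the motifs were chosen with earlier results of these data known. Genes named are Piezo, its neighbours with peaks, the genes at the next 5 peaks, mechanosensory genes with promoter peaks and the 3 most similar profiles, and mechanosensory genes with a body peak or none were added after their values were seen. No test was run, because the peak chose the gene and there is 1 group, from 1 fly line. Steps were tested on simulated data. Alternatives were other windows, lists, overlap rules and promoter distances, and leaving out each replicate. Python 3.11.15, NumPy 2.4.6, pandas 2.3.3 and matplotlib 3.10.9 were used.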

Additional observations from a re-analysis of the deposited data

How the results depend on the processing

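Of 50 alternatives listed at the start, 37 moved a value by less than the SD between replicates, or a count by no more than 1.5 times. Some of these could hardly move. The pooled and optimal lists share their highest peak, RefSeq gives the same gene coordinates, and the dm3 lists repeat nearly the same values. For the summit spread, the SD served as its own limit. The count is therefore no measure of how robust the results are. Optimal peaks numbered 4 near Piezo and 1 in the gene body alone, with 15 pooled candidates. The distance of the highest peak to the TSS was −139 bp by summit and −248.5 bp by midpoint. Its width was 1026 bp on the optimal list, against 959 and 929 bp in replicates 1 and 3 on dm6 and 958 and 927 bp on dm3, and its ratio to the second peak 1.10, against 1.06 in replicate 1 on both builds. The SD of its summit was 4.04 bp, and 0 to 4.95 bp on leaving out a replicate, 0 bp without replicate 2. Mechanosensory genes with an optimal promoter summit numbered 4 at 500 bp and 7 at 1000 bp, against 19.9% and 22.9% of protein-coding genes. Kinds of motif matched at the summit numbered 1 within 50 bp, 3 within 100 bp and 4 within 150 bp. For the intron 1 peak, alternatives chosen after seeing the data moved the rank ratio of 8.63 to between 2.16 and 8.63 on leaving out a replicate, and within 200 ranks 3 of 400 peaks had a higher ratio. No paired analysis was possible because there is 1 group. With 3 replicates of unknown depth, an absent peak is one not detected.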
